A study of Drosophila melanogaster with 6 samples.

Results

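The subunit genes of the vacuolar H+-ATPase (V-ATPase) were taken as every row of the deposited matrix whose gene symbol starts with Vha, which gave 25 of 12925 rows. Of these genes, 12 encode subunits of the V1 sector, 12 encode subunits of the V0 sector and 1, *VhaAC45*, encodes an accessory protein. They lie on chromosome arms 2L (5 genes), 2R (6), 3L (3) and 3R (9) and on X (2). Together they held 423110 UMIs (unique molecular identifiers, each standing for 1 captured RNA molecule), which is 0.460% of the 92019724 UMIs of the matrix.

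The V-ATPase is a rotary proton pump. Its cytosolic V1 sector hydrolyses ATP and its membrane-embedded V0 sector carries protons across the membrane, so that lysosomes, endosomes and secretory vesicles become acidic. In insect epithelia such as those of the gut and the renal tubules, the pump is also placed in the plasma membrane, where the proton gradient drives the transport of other ions. Several subunits are encoded by more than 1 gene in Drosophila, and for the membrane subunit a these paralogs are used in different tissues.

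Nuclear RNA was profiled with 10x Genomics 3′ single-nucleus sequencing in pooled female flies without heads, kept at 29 °C. The groups were fed flies, flies at day 2 of starvation and flies at day 5 of starvation, with 2 libraries each. These days are those of the sample titles. The library names of the day 2 samples carry a 5 and those of the day 5 samples a 7 instead. All groups carried the same drivers, *PromE-gal4*, an oenocyte driver, and *Tub-gal80ts*, a ubiquitous temperature-sensitive repressor of gal4. For the time at 29 °C the labels hold 2 values, 5 and 7 days, and no source says whether the paired libraries of a group came from separate flies.

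The matrix held 43027 nuclei in 26 clusters made by the authors. The libraries held 3776 to 10091 nuclei and 7562482 to 22932461 UMIs, with a median of 1074 to 1329 UMIs per nucleus, and the day 5 libraries were the smallest. Between 0.788% and 0.874% of the barcode sequences of a library also occurred in another library. Tests were made in the 19 clusters that had 20 or more nuclei in each library.

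The clusters of most interest for an epithelial proton pump were author cluster 12, the pylorus and the epithelial cells. Cluster 12 carries the name Malphian tubule and pericardial cells in the deposited annotation, but 8 of 8 enterocyte markers had their highest level of all clusters there, including *nub* at 11.8 and *alphaTry* at 18.4 UMIs per 10000 UMIs of the cluster. Of the tubule markers, *Uro* was at 0.0570 and *CapaR* at 0.0157 per 10000. *CapaR* was still highest there of all clusters, as was the tubule marker *SecCl* at 4.29. Every other tubule marker listed was highest elsewhere, though *ClC-a* was at 3.05 in cluster 12. No marker of pericardial cells was on the list. It is therefore called cluster 12 here. The pylorus had the highest *byn* (2.87 per 10000), *fkh* (5.45) and *bowl* (3.13) of all clusters, and the epithelial cells the highest *grh* (11.8). The other hindgut markers listed, *cad* (0.0496 in the pylorus), *drm* (0.235) and *dac* (0.0297), were highest in other clusters. So were the other epidermal markers, *crb* (4.61 in the epithelial cells), *cora* (2.63) and *vvl* (8.58). Cluster 12 held 1072 nuclei with a median of 9316.5 UMIs, the pylorus 432 with a median of 6077 and the epithelial cells 4794 with a median of 841.

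Levels are given as UMIs per 10000 UMIs summed over the nuclei of a cluster in a library. The summed level of the 25 genes was highest in germline cluster 6, with a median over the 6 libraries of 125 (117 to 133). The pylorus followed at 91.2 (70.9 to 110.2), then cluster 12 at 72.2 (57.8 to 83.2) and ovary cluster 7 at 63.6 (59.8 to 67.3). Germline cluster 6 lay above every library of the pylorus, while the ranges of the pylorus and cluster 12 overlapped. Those of cluster 12 and ovary cluster 7 overlapped too. In the mean of the fed libraries alone, cluster 7 (66.01) was above cluster 12 (58.46). The fat body at 19 (17.4 to 20.2) and the oenocytes at 18.2 (16.04 to 28.6) had the lowest medians. These orders are a description, because the clusters were made from the same genes.

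**Figure D1:**
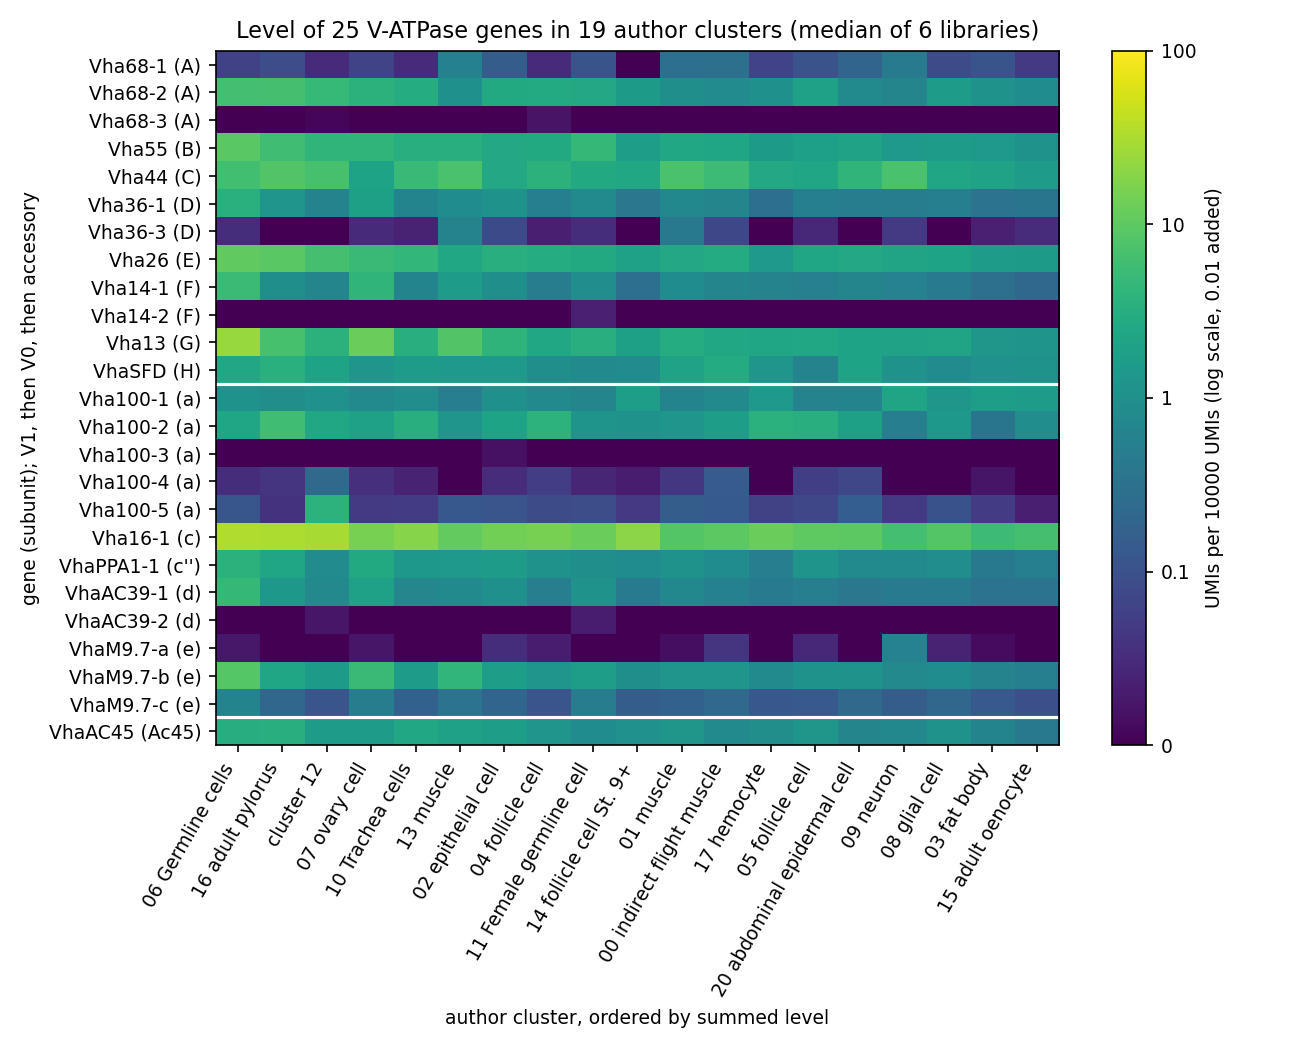
Median level over the 6 libraries of each V-ATPase gene (rows, V1 then V0 then accessory) in the 19 clusters tested (columns, ordered by summed level), in UMIs per 10000 UMIs on a logarithmic colour scale with 0.01 added. *Vha100-5* stands out in cluster 12 (3.83) and *VhaM9.7-a* in neurons (0.581), whereas *Vha16-1* is high throughout.

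In the V1 sector, 5 subunit genes had their highest level in germline cluster 6. *Vha55*, the nucleotide-binding subunit B (3R:12623762-12627829), had its highest median there at 9.51, against 5.86 in the pylorus, and cluster 6 was above the pylorus in every library. *Vha13*, the stator subunit G (3R:19643018-19644386), reached 24.3 in cluster 6 and 12.2 in ovary cluster 7, and again no library broke the order. *Vha26*, the stator subunit E, was at 10.5 in cluster 6 and 9.64 in the pylorus with overlapping ranges. *Vha36-1*, the rotor subunit D, was highest in cluster 6 at 3.50 and *Vha14-1*, the subunit F, likewise at 5.28.

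Of the other V1 genes, *Vha68-2*, *Vha44* and *VhaSFD* were highest in the pylorus, with ranges that overlapped those of the next cluster. *Vha68-2*, the main gene of the catalytic subunit A, was at 6.69 in the pylorus and 6.42 in cluster 6. *Vha44*, the subunit C that holds V1 and V0 together, was at 8.27 in the pylorus and 7.07 in neurons. *VhaSFD*, the regulatory subunit H, was at 3.47 in the pylorus and 2.93 in the indirect flight muscle.

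In the V0 sector, *Vha16-1* (2R:6625242-6633090), the proteolipid subunit c that forms the proton-carrying ring, held 31.8% of all V-ATPase UMIs. Its median was 33.7 in germline cluster 6, 32.0 in the pylorus and 30.1 in cluster 12, and the ranges of the first and second of these overlapped. *VhaPPA1-1*, the related ring subunit c'', had its highest level in cluster 6 (3.74), as did *VhaAC39-1*, the subunit d (4.53), and *VhaM9.7-b*, a subunit e (8.86). *VhaAC45*, the accessory protein, was highest in the pylorus at 3.33.

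The paralogs of subunit a were not all highest in the same cluster. *Vha100-5* (2L:11738948-11744524) was at 3.83 in cluster 12 (2.50 to 5.27) and at 0.147 in the next cluster, the abdominal epidermal cells, a ratio of 26.1 with no library out of order. *Vha100-2* (3R:18390323-18399169) was highest in the pylorus at 5.99 (5.24 to 6.82), 1.57 times the next cluster, follicle cluster 4 at 3.83, and above it in every library. *Vha100-1*, the paralog known for its synaptic role, was highest in neurons at 2.19 (1.76 to 2.49), with the fat body next at 1.74 (1.44 to 1.94) and overlapping ranges. *Vha100-4* (3R:18386841-18389805), whose gene lies beside *Vha100-2*, had its highest median in cluster 12 at 0.232, and its libraries there ran from 0.0401 to 0.722.

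The remaining paralogs were rare. *VhaM9.7-a*, a subunit e gene, was highest in neurons, at 0.581 against 0.0308 in the next cluster. *Vha36-3* (subunit D) and *Vha68-1* (subunit A) were highest in muscle cluster 13 at 0.602 and 0.564. *VhaM9.7-c*, a further subunit e gene, did not pass 0.636 in any of these clusters. *VhaAC39-2* (17 UMIs in the whole matrix), *Vha14-2* (29), *Vha100-3* (15) and *Vha68-3* (24) passed the filter for testing in no cluster. Some members overlap a gene on the opposite strand, namely *Vha44* (with *Hmgs*), *Vha100-1* (*Alg13*), *Vha100-2* (*Vti1b*), *Vha100-3* (*sano*), *Vha100-4* (*cona*), *Vha100-5* (*asRNA:CR44144*) and *VhaM9.7-c* (*CG18675*). The use of strand in the counting is not given in the sources used here, so reads of such pairs may not be told apart.

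A gene was tested in a cluster when at least 10 nuclei had a UMI of it in each of at least 2 libraries, which 21 of the 25 genes did somewhere and 10 did in all 19 clusters. Differences are on the log2 scale of UMIs summed over the cluster and scaled to the library's total in it, and limma's p was adjusted over all genes tested in the cluster, with a threshold of 0.05. The shares of all genes that passed are for this adjusted p.

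In cluster 12, 2 of 17 V-ATPase genes tested were higher at day 2 of starvation than in fed flies and 0 were lower, where 6.29% of all 7647 genes tested were higher and 4.98% lower. At day 5, 4 of 17 were higher and 0 lower, where 9.53% of all genes were higher and 10.1% lower. All of these calls fell on the proton-carrying c ring, on subunit a and on subunit B. The summed level was 59.2 and 57.8 in the fed libraries, 82.4 and 71.4 at day 2 and 83.2 and 72.9 at day 5, so that every starved library lay above both fed ones.

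*Vha16-1* was at 21.6 and 20.9 per 10000 in the fed libraries, 35.2 and 29.2 at day 2 and 34.7 and 31.01 at day 5. All starved libraries were above both fed libraries. The difference from fed was 0.59 (SE 0.10, limma adjusted p = 0.0102) at day 2 and 0.63 (SE 0.10, adjusted p = 0.00453) at day 5. Without fed replicate 1 the adjusted p at day 2 was 0.0736, and without fed replicate 2 it was 0.0816, while the call at day 5 was kept under each of the 16 alternatives tried.

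*Vha100-5*, the subunit a paralog of cluster 12, was at 2.54 and 2.50 in the fed libraries, 5.27 and 4.56 at day 2 and 4.04 and 3.62 at day 5. The groups did not overlap, and the day 2 libraries were the highest. It rose by 0.96 (SE 0.11, adjusted p = 0.00221) at day 2 and by 0.60 (SE 0.11, adjusted p = 0.00833) at day 5. On the mean deposited value, which weights every nucleus equally, the adjusted p was 0.829 at day 2 and 0.696 at day 5, and at day 5 it was 0.0632 without fed replicate 1 and 0.0671 without fed replicate 2.

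*Vha55*, the subunit B, was at 3.41 and 3.47 in the fed libraries, 4.29 and 4.01 at day 2 and 5.19 and 4.74 at day 5. The 3 groups did not overlap. The difference was 0.27 (SE 0.095, adjusted p = 0.114) at day 2 and 0.53 (SE 0.095, adjusted p = 0.00767) at day 5, with an adjusted p at day 5 of 0.0723 and 0.0598 without fed replicate 1 or 2.

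*Vha100-2*, the paralog that is highest in the pylorus, was at 1.72 and 2.08 in the fed libraries, 2.27 and 2.89 at day 2 and 3.05 and 2.79 at day 5. Both starved groups lay above the fed libraries and overlapped each other. The difference was 0.44 (SE 0.15, adjusted p = 0.113) at day 2 and 0.63 (SE 0.15, adjusted p = 0.0269) at day 5. The adjusted p at day 5 became 0.187 without fed replicate 1, 0.0564 without fed replicate 2 and 0.0848 without day 5 replicate 1.

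The other V1 genes of cluster 12 gave smaller differences that did not pass the test. *Vha68-2*, the subunit A, was at 3.98 and 4.09 in the fed libraries, 5.46 and 4.65 at day 2 and 5.93 and 4.77 at day 5, with differences of 0.32 (adjusted p = 0.161) and 0.40 (adjusted p = 0.0693). *Vha44*, the subunit C, had a day 5 difference of 0.26 (adjusted p = 0.0880). Among the 17 genes the differences ran from -0.21 to 0.96 at day 2 and from -0.23 to 0.63 at day 5. Fed and starved libraries were separate in the higher direction for 12 genes and in the lower for 1 at day 2, against 37.8% and 23.4% of all genes, and for 7 and 3 genes at day 5, against 30.9% and 31.6%.

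The median difference of the V-ATPase genes in cluster 12 was 0.24 at day 2, beside 0.13 for all genes tested, and 0.14 at day 5, beside 0.02 for all genes. Median-ratio scaling moved the day 2 median of all genes by -0.12. Between day 5 and day 2, 0 of the 17 genes passed the test with limma, where 2.28% of all genes were higher at day 5 and 4.58% lower. Nuclei of cluster 12 held a median of 9854 and 9278 UMIs in the fed libraries, 7460.5 and 8512.5 at day 2 and 10737 and 9693 at day 5, and the part of this in the differences was not tested.

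**Figure D2:**
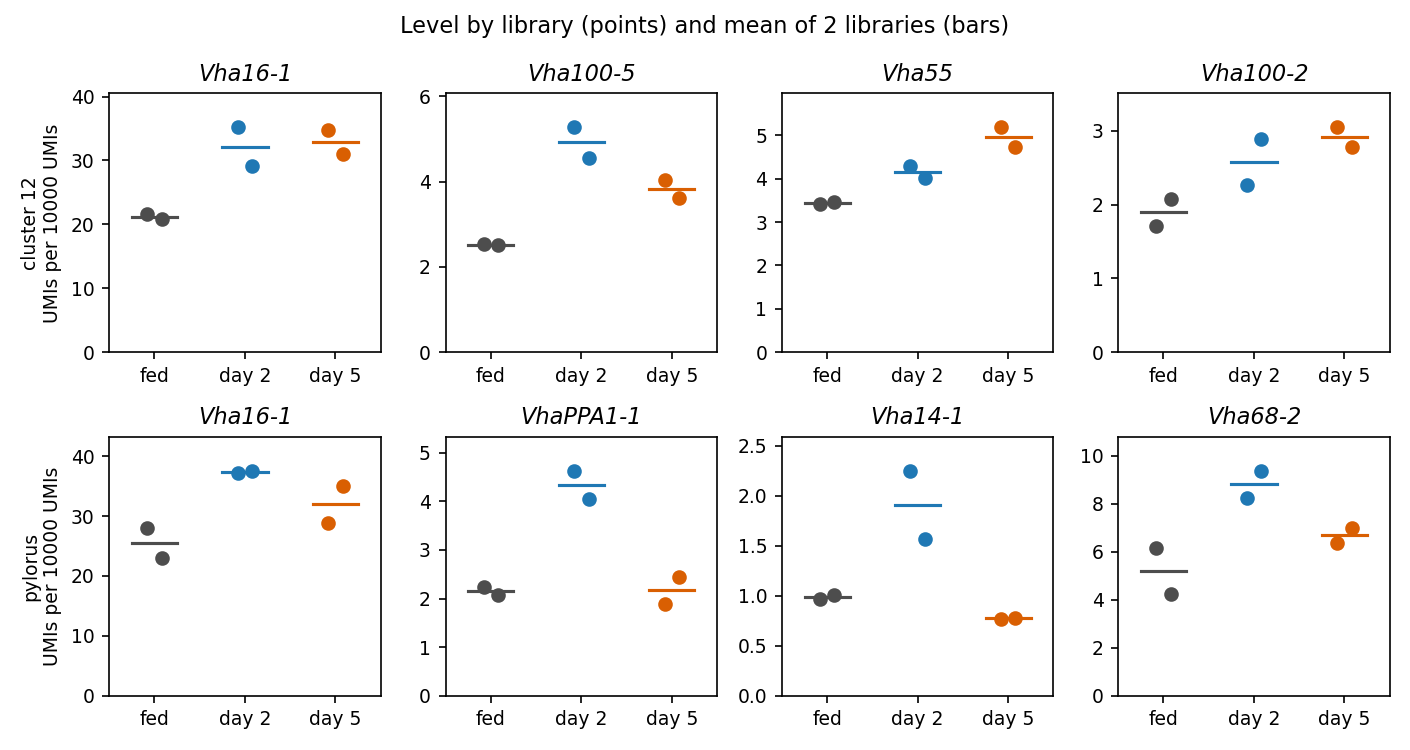
Level in UMIs per 10000 UMIs of 4 V-ATPase genes in cluster 12 (top) and 4 in the pylorus (bottom), by group. Points are libraries and bars the mean of 2 libraries; in cluster 12 both starved groups lie above the fed libraries for all 4 genes, and in the pylorus *VhaPPA1-1* and *Vha14-1* are high at day 2 (4.63 and 4.04, 2.25 and 1.57) and lower at day 5 (1.89 and 2.45, 0.769 and 0.779).

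In the pylorus, 0 of 16 V-ATPase genes tested passed the test at day 2 with limma, where 0.169% of all 4725 genes were higher and 0.254% lower. The summed level was 85.1 and 70.9 in the fed libraries, 110.2 and 109.6 at day 2 and 86.4 and 95.9 at day 5. Both day 2 libraries were the highest, and the day 5 libraries lay between them and the fed ones. The median difference at day 2 was 0.58, beside 0.03 for all genes. At day 2, 15 genes had both libraries above both fed libraries and 1, *Vha100-1*, had both below, where the shares of all genes were 27.2% and 25.1%.

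*VhaPPA1-1* (3R:14902330-14904061), the ring subunit c'', was at 2.24 and 2.08 in the fed libraries of the pylorus, 4.63 and 4.04 at day 2 and 1.89 and 2.45 at day 5. The day 2 libraries lay above the other 4, which overlapped. The day 2 difference was 1.00 (SE 0.22, adjusted p = 0.122). *Vha14-1*, the subunit F, had 0.965 and 1.01 in the fed libraries, 2.25 and 1.57 at day 2 and 0.769 and 0.779 at day 5. The day 2 libraries were the highest and those of day 5 the lowest, with a day 2 difference of 0.93 (SE 0.26, adjusted p = 0.201).

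*Vha68-2*, the subunit A, was at 6.16 and 4.23 in the fed libraries, 8.25 and 9.38 at day 2 and 6.36 and 7.01 at day 5, a day 2 difference of 0.78 (SE 0.22, adjusted p = 0.206). *Vha16-1* was at 28.1 and 23.1, at 37.3 and 37.6 and at 28.9 and 35.0, a day 2 difference of 0.56 (SE 0.18, adjusted p = 0.254). In both genes the day 5 libraries were above the fed ones and below those of day 2. When day 5 replicate 1, day 5 replicate 2 or both were left out of the fit, 2 genes of the pylorus passed the test at day 2.

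At day 5, 0 of 16 genes passed the test in the pylorus with limma, where 0.127% of all genes were higher and 0.677% lower. *Vha44* had a day 5 difference of 0.42 (SE 0.17, adjusted p = 0.345). Both day 5 libraries were above both fed ones for 5 genes and below for 2, against 16.2% and 28% of all genes. The median difference was 0.02, beside -0.07 for all genes. Between day 5 and day 2, 0 genes passed with limma, where 0.254% of all genes were higher at day 5 and 0.698% lower. In 12 genes both day 5 libraries were below both of day 2, against 28.7% of all genes, and the median difference was -0.36.

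**Figure D3:**
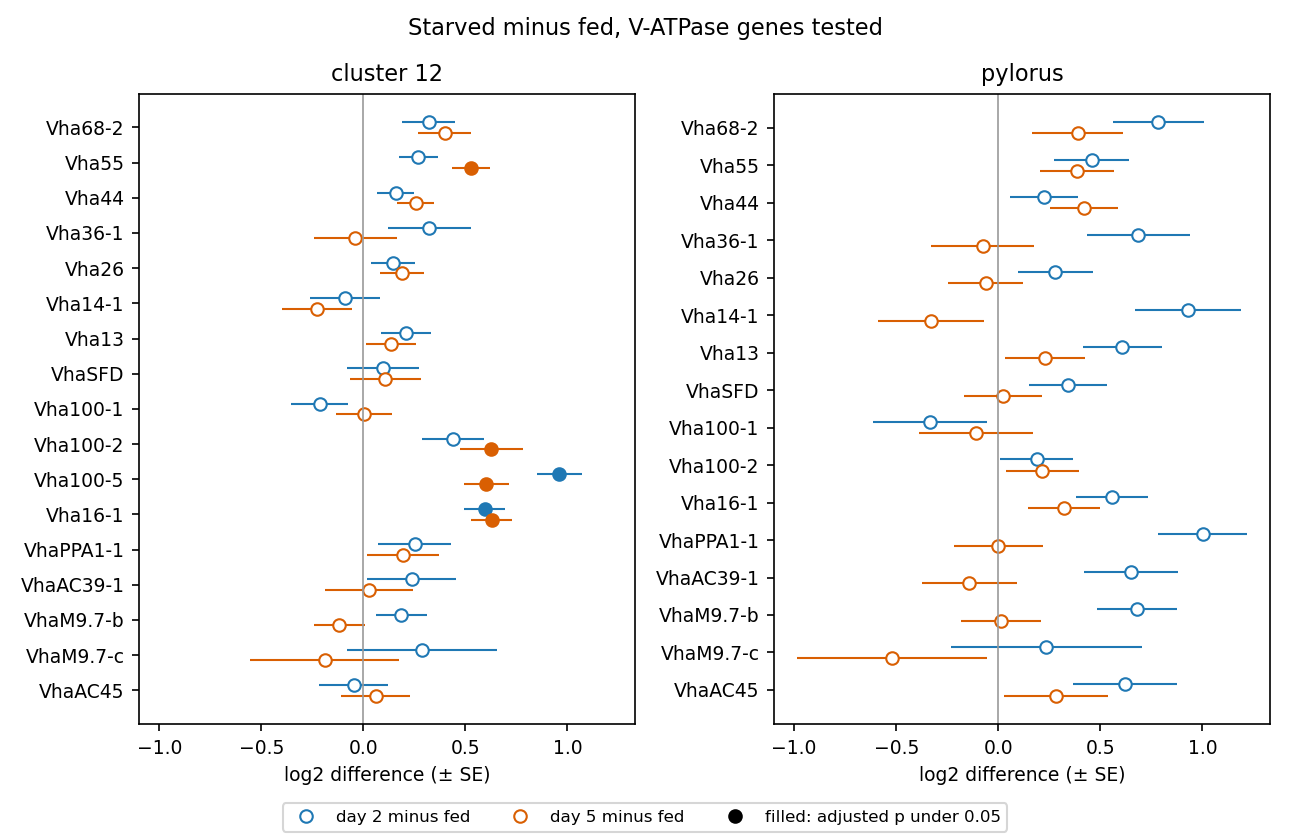
Log2 difference from fed, with its SE, of every V-ATPase gene tested in cluster 12 (left) and the pylorus (right), at day 2 and day 5. Filled points have a limma adjusted p under 0.05: 2 at day 2 and 4 at day 5 in cluster 12 and 0 in the pylorus, where the open day 2 points lie above 0 for 15 of 16 genes.

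The nuclei of the pylorus were not alike. A level of over 150 V-ATPase UMIs per 10000 UMIs of the nucleus, a value set after the levels were seen, was reached by 99 of 432 nuclei, which held 44.9% of the V-ATPase UMIs of the cluster. A further limit of that choice is that 66 nuclei lay between 125 and 175. Their share of the pylorus nuclei was 12.6% and 14.3% in fed flies, 31.6% and 31.6% at day 2 and 30.2% and 30.9% at day 5. Every starved library had a larger share than both fed ones.

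After each nucleus was thinned to 2000 UMIs, which left out no nucleus of the pylorus, the shares were 14.8% and 13.5%, 32.6% and 31.1%, and 28.9% and 30.0%. With 2 libraries in each group, the exact two-sided permutation test gave p = 0.333 for day 2 and for day 5 against fed, the smallest value it can give. Without these nuclei the summed level was 69.3 and 56.7 in the fed libraries, 61.5 and 66.4 at day 2 and 50.5 and 61.6 at day 5. These levels are a description, because the same UMIs chose the nuclei that were left out.

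Some listed genes that did not choose the 99 nuclei also differed in level. The level in them and in the other 333 nuclei was 12.8 and 2.31 for *Nha1* and 14.6 and 3.30 for *Nha2*, a pair of cation/proton antiporters of the kind that works beside the pump in insect epithelia. *Irk2*, an inward rectifier potassium channel, was at 12.1 and 2.26, and *ATP6AP2*, the prorenin receptor homolog that associates with the V-ATPase, at 6.42 and 1.52. For *nrv3*, a beta subunit of the Na+/K+-ATPase, the order was the opposite, at 0.0348 and 13.4.

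The hindgut factors *byn* (4.07 and 2.59) and *fkh* (7.65 and 4.93) were present in both sets of nuclei, while the enterocyte factor *nub* was near 0 in both (0.0348 and 0.0408). The median was 5087 UMIs in the 99 nuclei and 6486 in the others. These levels are pooled over the libraries and carry no test.

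**Figure D4:**
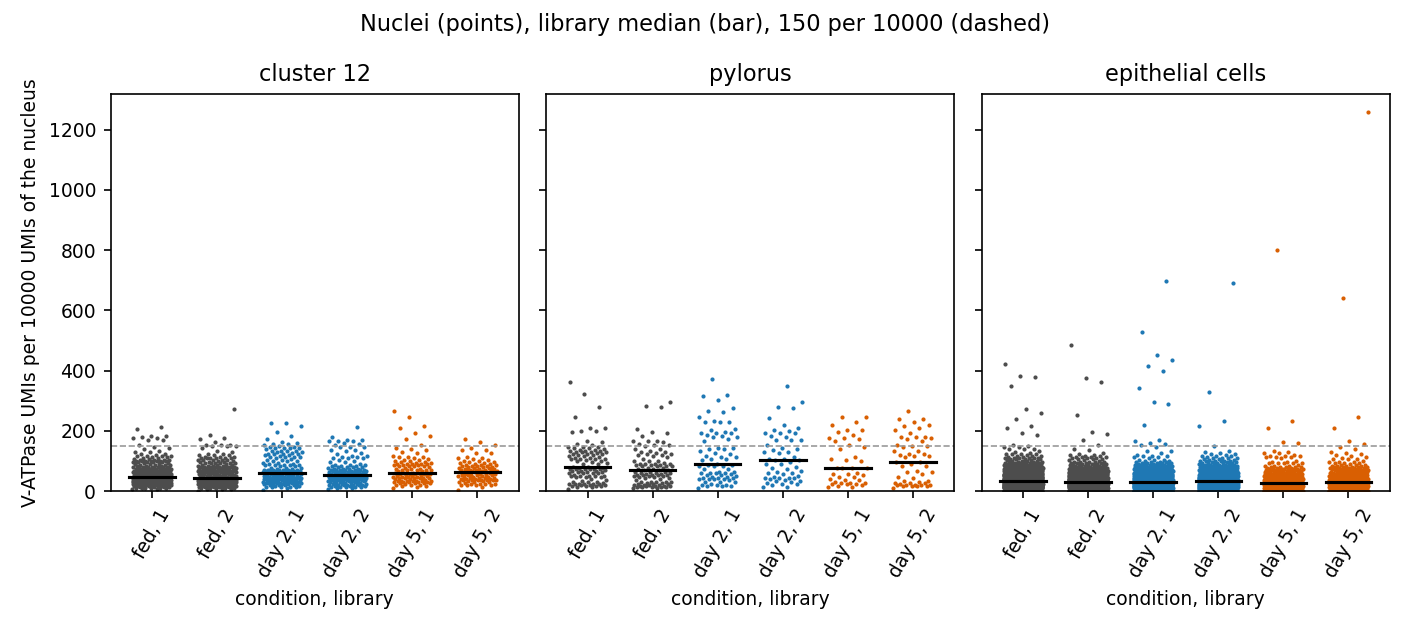
V-ATPase UMIs per 10000 UMIs of each nucleus in cluster 12, the pylorus and the epithelial cells, by library, with the line at 150 per 10000 and a bar at the library's median. In the pylorus 12.6% and 14.3% of fed nuclei and 30.2% to 31.6% of starved nuclei lie above the line, and in day 5 replicate 1 of the epithelial cells 5 of 419 nuclei do.

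In cluster 12 only 51 of 1072 nuclei were above this level, with 15.6% of the V-ATPase UMIs. The median nucleus of a library was at 47.9 and 44.1 in the fed libraries, 60.6 and 52.2 at day 2 and 60.7 and 62.4 at day 5, above fed in every starved library (exact permutation p = 0.333 for each day, the smallest possible). Without the 51 nuclei, which were chosen by the UMIs compared, the day 2 difference of *Vha100-5* was 0.53 (limma adjusted p = 0.0875) and its day 5 difference 0.46 (adjusted p = 0.0937), and neither passed the test. *Vha16-1* still passed at day 2 (0.46, adjusted p = 0.0262) and day 5 (0.59, adjusted p = 0.00591), as did *Vha55* (0.43, adjusted p = 0.0428) and *Vha100-2* (0.74, adjusted p = 0.0227) at day 5.

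The paralogs of subunit a were also counted per nucleus in cluster 12. A UMI of *Vha100-5* was found in 47.6% of its nuclei, against 1.96% in the fat body (median of 4215 UMIs per nucleus), 0.749% in neurons (1946) and 1.62% in the pylorus (6077), clusters in which its level was low. Free RNA was not separated from expression here. The tenth of nuclei with the most *Vha100-5* UMIs held 58.2% of them. The share of cluster 12 nuclei with a *Vha100-5* UMI was 52.6% and 46.8% in fed flies, 43.5% and 46.3% at day 2 and 42.7% and 50% at day 5, with overlapping groups. Thinned to 5000 UMIs per nucleus, which left out 254 of the 1072 nuclei, the shares were 45.6% and 44.2%, 54.7% and 51.1%, and 43.3% and 50.4%.

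In the 205 nuclei with at least 5 *Vha100-5* UMIs per 10000, *Vha16-1* was at 42.0 and *Vha55* at 5.51, against 22.1 and 3.49 in the other 867. *LManVI*, an enterocyte lysosomal mannosidase gene, was at 4.19 against 0.381, whereas *CAH1*, a carbonic anhydrase, was at 4.36 against 15.2 and *Nhe2*, a sodium/proton exchanger, at 1.37 against 9.30. The median was 11140 UMIs in these nuclei. *Vha100-2* had the opposite order, at 1.36 against 2.57. The order of each gene was the same in all 6 libraries, except that *LManVI* was at 0 against 0.492 in fed replicate 2.

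In the 166 nuclei with at least 5 *Vha100-2* UMIs per 10000, *Vha100-5* was at 1.12 against 3.80 in the other 906, and *SecCl*, a chloride channel, at 14.1 against 2.82, in the same order in all 6 libraries. *Vha16-1* was higher in these nuclei in the fed libraries (28.9 against 21, and 25.9 against 20.4). It was lower in them at day 2 (24.5 against 36.8, and 25.4 against 30.2) and day 5 (28.7 against 36.3, and 27.5 against 31.8). The share of nuclei with a *Vha100-2* UMI was 59.1% and 60.8% in the fed libraries, 58.3% and 65.9% at day 2 and 76.7% and 73.0% at day 5. Thinned to 5000 UMIs, it was 44.0% and 48.7%, 48.8% and 61.2%, and 61.8% and 60.7%. Every starved library was then above both fed ones.

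*Vha100-4* was found in only 31 nuclei of cluster 12, with 271 UMIs. In the 25 with at least 1 per 10000, *lab*, the homeotic gene of acid-secreting copper cells of the midgut, was at 31.5 per 10000 against 0.685 in the other 1047 nuclei, and it was higher in them in each of the 6 libraries. *CAH1* was at 58.6 against 11.7, *Nhe2* at 26.0 against 7.10, *Vha16-1* at 66.5 against 25.8 and *Vha55* at 10.5 against 3.81. In day 5 replicate 2, with 2 such nuclei, *Vha16-1* (18.9 against 31.2) and *Vha55* (0 against 4.80) had the opposite order, and *Vha55* had it too in day 2 replicate 2 (3.16 against 4.03). *Vha100-5* had 0 UMIs in these 25 nuclei, which allows a level of up to 0.140 per 10000 (3 UMIs of their total, counting error only). Of the other copper cell marker listed, *Fer1HCH*, the level was 5.86 against 8.12. In the 20 nuclei with at least 5 *Vha100-1* UMIs per 10000, *Vha100-2* was at 3.30 against 2.28 in the other 1052 and *Vha100-5* at 3.30 against 3.46. Across the 1072 nuclei, which share libraries and depth, Spearman's rho between pairs of the 4 subunit a genes found there ran from -0.12 to 0.12.

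In the epithelial cells, 2 of 18 V-ATPase genes tested were higher at day 5 than in fed flies and 0 were lower, where 4.16% of all 7479 genes were higher and 7.57% lower. At day 2, 0 genes passed the test with limma, where 0.909% of all genes were higher and 1.42% lower. The summed level was 45.6 and 37.4 in the fed libraries, 40.6 and 40.0 at day 2 and 75.7 and 46.6 at day 5. Only day 5 replicate 1 stood well above the rest.

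*Vha26*, the subunit E, was at 3.64 and 2.85 in the fed libraries, 3.101 and 3.04 at day 2 and 8.04 and 4.90 at day 5, a day 5 difference of 0.96 (SE 0.21, adjusted p = 0.0192). *Vha68-2*, the subunit A, was at 2.72 and 2.05, at 2.56 and 2.64 and at 4.79 and 3.60, a day 5 difference of 0.81 (SE 0.18, adjusted p = 0.0179). Both day 5 libraries were above the other 4 in either gene. *Vha16-1* was at 14.9 and 11.5, at 13.7 and 13.5 and at 28.4 and 16.8, with a difference of 0.74 (adjusted p = 0.0530).

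Without the tenth of nuclei with the most UMIs, the differences were 0.26 (adjusted p = 0.212) for *Vha26* and 0.28 (adjusted p = 0.231) for *Vha68-2*. In day 5 replicate 1, 5 of 419 nuclei were above 150 V-ATPase UMIs per 10000 and held 54.1% of its V-ATPase UMIs, against 5.18% to 18.9% in the other libraries, and without them its summed level was 37.7. The median nucleus was at 32.8 and 31.2 in the fed libraries, 29.8 and 32.3 at day 2 and 26.9 and 29.4 at day 5. Without the nuclei above 150, which were chosen by the UMIs compared, 0 genes passed the test, and the differences were 0.32 (adjusted p = 0.178) for *Vha26* and 0.42 (adjusted p = 0.0967) for *Vha68-2*. On the mean deposited value and on the mean log-normalised value, the 3 V-ATPase genes that passed were all lower at day 5, and without the tenth of nuclei with the most UMIs the 2 that passed were lower. The number of genes that passed without 1 library ran from 0 (without fed replicate 2 or either day 2 library) to 8 (without day 5 replicate 2). *Vha26* was lost in 10 of the 16 alternatives and *Vha68-2* in 8.

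Pooled over the 50 epithelial nuclei above 150, levels were also higher than in the other 4744 for *Nha1* (11.3 against 0.197), *Nha2* (3.23 against 0.191), *Irk2* (11.5 against 0.378) and *ATP6AP2* (11.3 against 1.30). For *nrv3* the order was opposite to that of the pylorus, at 5.41 against 0.791. A UMI of these genes in turn was found in 30%, 16%, 38%, 62% and 12% of the 50 nuclei. In the other nuclei the shares were 1.62%, 1.64%, 3.035%, 11.6% and 4.55%. Apart from *ATP6AP2*, the pooled levels therefore rest on a minority of the 50. The epidermal factor *grh* was at 1.31 against 12.01 and *vvl* at 1.83 against 8.74, with *crb* (2.70 against 4.65) and *cora* (2.09 against 2.64) also lower. The hindgut markers were split. *byn* was at 0.960 against 0.287, *fkh* at 2.09 against 1.01 and *drm* at 0.611 against 0.36. Lower were *bowl* (1.66 against 2.63), *cad* (0.0872 against 0.452) and *dac* (0.436 against 0.862). No cell type is read from these levels. What part such nuclei have in the day 5 levels of other genes of this cluster was not tested. In the oenocytes, the cells that carry the driver, 1 nucleus of day 5 replicate 1 above 150 held 33.4% of that library's V-ATPase UMIs, and without it the summed level there was 19.5 rather than 28.6.

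The responses of these clusters were also compared with each other within libraries. The pairs were cluster 12 and the pylorus, cluster 12 and the epithelial cells, and the pylorus and the epithelial cells. The test of the difference called 0 V-ATPase genes in each pair at either day. Of all genes tested, it called at most 1 of 6534 (0.0153%). The smallest adjusted p of a V-ATPase gene was 0.153, for *Vha26* at day 5 in cluster 12 against the epithelial cells, where the responses differed by -0.78.

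Over the 19 clusters, the 307 tests of V-ATPase genes gave 2 higher and 4 lower calls at day 2, in 3 clusters, and 15 higher and 25 lower calls at day 5, in 11 clusters. Over the same clusters, 2.09% of all tests were higher and 2.41% lower at day 2, and 5.72% and 9.98% at day 5. With median-ratio scaling the V-ATPase calls were 2 higher and 2 lower at day 2 and 23 higher and 16 lower at day 5, so that the balance at day 5 turned. Counted by gene, *Vha13*, the stator subunit G, was lower in 7 of 19 clusters and higher in 0, and its difference was below 0 in 15. *Vha14-1* (F) was lower in 4 and *Vha36-1* (D) in 2, whereas *Vha44* (C) was higher in 3 and lower in 0. These genes also differ in span, at 1369 bases for *Vha13*, 659 for *Vha14-1*, 1064 for *Vha36-1* and 11825 for *Vha44*. The part of gene span in the calls was not tested. With median-ratio scaling *Vha13* was lower in 6 clusters, *Vha14-1* in 1 and *Vha36-1* in 2, and *Vha44* was higher in 3. How many of all genes reached such counts of clusters is not given here, so no gene is called unusual for its count. The genes of the plot by cluster, *Vha13*, *Vha44* and *VhaSFD*, were picked after their values were seen.

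**Figure D5:**
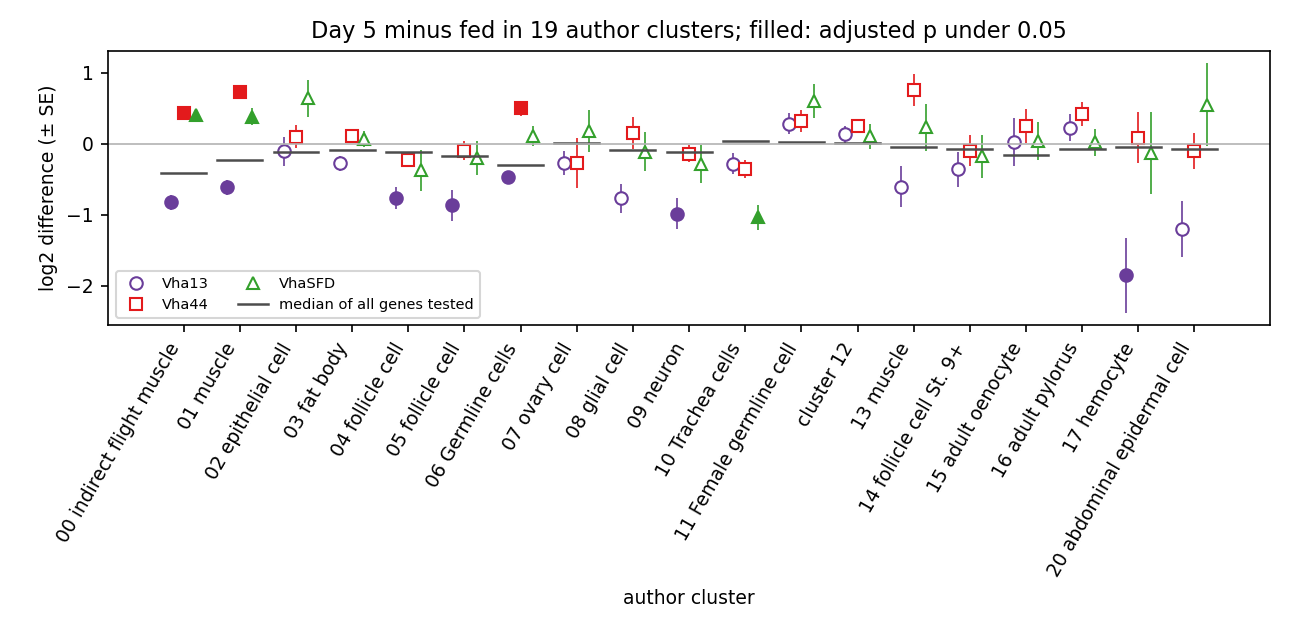
Log2 difference between day 5 and fed, with its SE, of *Vha13*, *Vha44* and *VhaSFD* in the 19 clusters tested, with the median of all genes tested as a grey bar. Filled points passed the test: *Vha13* was lower in 7 clusters, *Vha44* higher in 3, and *VhaSFD* higher in 2 and lower in 1.

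In the indirect flight muscle, 3 of 20 V-ATPase genes were higher and 6 lower at day 5, where 11.1% of all 7919 genes were higher and 29.3% lower, and the median of all genes was -0.41. *Vha13* was at 2.98 and 3.24 in the fed libraries, 2.42 and 2.40 at day 2 and 1.94 and 1.58 at day 5. The groups followed each other without overlap, with a day 5 difference of -0.82 (SE 0.10, adjusted p = 6.87e-05). *Vha44* was at 5.23 and 5.78, at 5.40 and 5.22 and at 7.13 and 7.78, a difference of 0.44 (SE 0.066, adjusted p = 0.000337) with both day 5 libraries on top.

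*VhaSFD*, the subunit H, was at 2.91 and 2.96 in the fed flight muscle, 2.40 and 2.27 at day 2 and 3.74 and 4.02 at day 5. It was lower at day 2 (-0.33, SE 0.073, adjusted p = 0.0157) and higher at day 5 (0.40, SE 0.073, adjusted p = 0.00126). The other higher call at day 5 was *Vha100-4* (1.44, adjusted p = 0.00712), and the other lower ones were *VhaM9.7-b* (-0.77), *Vha14-1* (-0.61), *VhaPPA1-1* (-0.54), *VhaAC39-1* (-0.54) and *VhaAC45* (-0.47). Median-ratio scaling moved the median of all genes up by 0.34 and turned the split to 7 higher and 2 lower.

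At day 2, 0 V-ATPase genes were higher in the flight muscle and 2 were lower, *VhaSFD* and *Vha13* (-0.37, SE 0.10, adjusted p = 0.0482), where 4.14% of all genes were higher and 4.65% lower. With median-ratio scaling 0 passed in either direction. At day 2 *Vha13* was lost when any 1 of the fed or day 2 libraries was left out (adjusted p from 0.120 to 0.354), and *VhaSFD* without fed replicate 1, fed replicate 2 or day 2 replicate 2 (0.103 to 0.138). The calls of *Vha13*, *Vha44*, *VhaSFD* and *VhaM9.7-b* at day 5 were kept in all 15 alternatives run for this cluster. Of the others, *VhaPPA1-1* was lost without fed replicate 1 (0.0871), *Vha100-4* without fed replicate 2 (0.0943), *VhaAC45* without either (0.0767 and 0.0974), *VhaAC39-1* without either or day 5 replicate 1 (0.0740 to 0.136) and *Vha14-1* without either or day 5 replicate 2 (0.0698 to 0.0886). With median-ratio scaling *VhaPPA1-1*, *VhaAC45*, *VhaAC39-1* and *Vha14-1* did not pass.

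In muscle cluster 1, 3 of 19 genes were higher and 2 lower at day 5, where 8.98% of all 6723 genes were higher and 16.6% lower. *Vha44* was at 6.53 and 6.62 in the fed libraries, 7.12 and 6.83 at day 2 and 10.9 and 10.9 at day 5. The day 5 libraries were far above the other 4, with a difference of 0.73 (SE 0.072, adjusted p = 1.28e-05). *Vha36-3* (0.94) and *VhaSFD* (0.39) were also higher, and *Vha68-2* (-0.86) and *Vha13* (-0.61) were lower. The *Vha44* and *Vha13* calls were kept in all 15 alternatives. *Vha68-2* was lost without fed replicate 1 (adjusted p = 0.0553), *Vha36-3* when fed replicate 1, either day 2 library or day 5 replicate 1 was left out (0.0663 to 0.334, with a difference of 0.57 without fed replicate 1), and *VhaSFD* when any library except day 5 replicate 2 was (0.0599 to 0.176). Each of *Vha36-3* and *VhaSFD* was lost in 8 of the 15 alternatives. *Vha44* is one of the genes that overlap another on the opposite strand.

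In the fat body, 2 of 18 genes were higher and 4 lower at day 5, where 14.8% of all 8065 genes were higher and 19.7% lower. *Vha26* was at 1.39 and 1.41 in the fed libraries, 1.51 and 1.58 at day 2 and 2.07 and 2.02 at day 5, with no overlap between groups and a day 5 difference of 0.55 (SE 0.083, adjusted p = 0.000255). *Vha55* was higher by 0.33, and *Vha36-1* (-0.95), *Vha100-2* (-0.80), *Vha14-1* (-0.62) and *Vha100-5* (-1.40) were lower, the last with 62 UMIs in the whole cluster. As few nuclei of the fat body had a *Vha100-5* UMI as of the pylorus (1.96% and 1.62%), and no change is read from it. The calls of *Vha26* and *Vha100-2* were kept whichever library was left out. *Vha36-1* was lost without fed replicate 1 (adjusted p = 0.0602), *Vha55* without fed replicate 1 or day 5 replicate 1 (0.2201 and 0.136), *Vha100-5* without either fed library, day 2 replicate 2 or day 5 replicate 1 (0.0566 to 0.225), and *Vha14-1* when any library except day 5 replicate 2 was left out (0.0673 to 0.173, with a difference of -0.37 without day 5 replicate 1). *Vha14-1* was lost in 10 and *Vha100-5* in 11 of the 15 alternatives.

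*Vha100-2* had already fallen in the fat body at day 2, from 0.607 and 0.575 to 0.278 and 0.301, a difference of -1.03 (SE 0.17, adjusted p = 0.000997). *Vha16-1* was also lower at day 2, at 4.66 and 4.73 against 5.43 and 5.50 in the fed libraries, a difference of -0.22 (SE 0.061, adjusted p = 0.0234) that was lost when any 1 of these 4 libraries was left out (0.0989 to 0.153). At day 2, 10.5% of all genes of the fat body were higher and 10.2% lower.

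In germline cluster 6, where the summed level was highest, *Vha13* was at 23.6 and 26.2 in the fed libraries, 27.5 and 24.9 at day 2 and 17.3 and 18.5 at day 5. Both day 5 libraries were below the other 4, a difference of -0.47 (SE 0.088, adjusted p = 0.0156). *Vha14-1* was lower (-0.56) and *Vha44* higher (0.50), so that 1 of 16 genes was higher and 2 were lower, where 4.53% of all 7177 genes were higher and 11.5% lower. Median-ratio scaling moved the median of all genes by 0.26 and left 2 higher and 0 lower calls. *Vha13* was lost without fed replicate 1 or 2 (0.0828 and 0.151), and *Vha14-1* and *Vha44* when any 1 of the fed or day 2 libraries was left out (0.0961 to 0.259 and 0.0650 to 0.174).

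In the trachea cells (cluster 10), 0 of 16 genes were higher at day 5 and 2 lower, where 5.18% of all 5695 genes were higher and 5.85% lower. *Vha16-1* was at 20.9 and 20.03 in the fed libraries, 17.7 and 20.6 at day 2 and 16.3 and 12.6 at day 5, a day 5 difference of -0.51 (SE 0.13, adjusted p = 0.0388). *VhaSFD* was at 1.69 and 1.75 in the fed libraries and 0.804 and 0.830 at day 5 (-1.04, SE 0.18, adjusted p = 0.00724). Both were lower in each day 5 library than in each fed one. *VhaSFD* was lost without fed replicate 1 or 2 (0.0941 and 0.110) and *Vha16-1* when any 1 of the fed or day 2 libraries was left out (0.108 to 0.254).

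In follicle cluster 4, 0 of 17 genes were higher at day 5 and 3 lower, where 7.08% of all 7500 genes were higher and 10.5% lower. *Vha13* was at 2.44 and 2.70 in the fed libraries, 2.64 and 2.60 at day 2 and 1.74 and 1.29 at day 5. Both day 5 libraries were below the other 4 (-0.76, SE 0.15, adjusted p = 0.00976). *Vha26* (-0.48) and *Vha14-1* (-1.10) were also lower. Without fed replicate 1 or 2 none of the 3 passed (0.0590 to 0.156), and *Vha14-1* did not without either day 2 library (0.05004 and 0.0516).

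In follicle cluster 5, 0 of 15 genes were higher and 2 lower, where 6.35% of all 6675 genes were higher and 12.1% lower. *Vha36-1*, the rotor subunit D, had a difference of -2.22 (SE 0.35, adjusted p = 0.000887). Its mean was 0.694 in the fed libraries and 0.142 at day 5. The day 5 libraries held only 321531 and 367971 UMIs in this cluster, so the day 5 level rests on few *Vha36-1* UMIs. The size of the fall is therefore uncertain. When a library was left out, the difference ran from -2.67 to -1.76. *Vha13* was at 3.02 and 2.43 in the fed libraries and at 1.96 and 1.11 at day 5 (-0.87, SE 0.21, adjusted p = 0.0143), and did not pass without fed replicate 1 (0.149).

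In neurons, 0 of 17 genes were higher at day 5 and 3 lower, where 1.51% of all 5177 genes were higher and 4.56% lower. *Vha13* was at 2.45 and 2.19 in the fed libraries, 2.18 and 1.91 at day 2 and 1.37 and 0.974 at day 5, with both day 5 libraries the lowest (-0.98, SE 0.21, adjusted p = 0.0307). *Vha100-2* (-1.25) and *VhaAC45* (-1.39) were also lower. All 3 were lost when any 1 of the fed or day 2 libraries was left out (0.0647 to 0.304), and *Vha100-2* was lost in 13 of the 15 alternatives. In the hemocytes 0 of 10 genes were higher and 1 lower, where 3.21% of all 1431 genes were higher and 5.8% lower. This was *Vha13*, with 98 UMIs in the cluster, at 3.13 and 2.73 in the fed libraries and 1.39 and 0.366 at day 5 (-1.85, SE 0.53, adjusted p = 0.0385). The call was lost when any library except day 5 replicate 1 was left out (0.0755 to 0.299), and without day 5 replicate 2 the difference was -0.998.

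In female germline cluster 11, 0 of 16 genes passed the test at day 5 with limma, where 1.2% of all 7022 genes were higher and 1.81% lower. In 12 of the 16 both day 5 libraries were above both fed ones, against 23.8% of all genes, and in 0 both were below, against 24.1%, and the median difference was 0.38, beside 0.03 for all genes. The summed level was 35.7 and 37.4 in the fed libraries, 36.6 and 38.1 at day 2 and 45.8 and 50.1 at day 5.

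The list of other genes of the pathway held 53 genes, of which 52 had a row, namely 11 for V-ATPase assembly, regulation and nutrient sensing, 19 lysosomal genes and 23 genes of epithelial ion transport. In cluster 12, 9 of the 48 tested were higher at day 2 and 6 lower. Of the ion transport genes 6 of 22 were higher and 1 lower, of the lysosomal genes 3 of 16 were higher and 5 lower, and of the assembly genes 0 of 10 passed in either direction. Of the 3 groups the ion transporters had the largest share of higher calls, and the shares of all genes at day 2 were 6.29% and 4.98%, as above. On the mean deposited value, 1 listed gene was higher and 7 lower at day 2, and 3 were higher and 8 lower at day 5.

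By the smallest adjusted p, the genes that rose at day 2 in cluster 12 were *CAH1* (1.11, from 8.58 to 18.5 per 10000, adjusted p = 0.000799), the glucocerebrosidase gene *Gba1a* (2.33), *Cln3* (0.72), *Nhe2* (0.79) and the Na+/K+/Cl- cotransporter *Ncc69* (0.60). Those that fell were *Cln7* (-1.67), the chloride channel *Best1* (-1.01), the cathepsin F gene *CG12163* (-0.96), the sterol-binding *Npc2a* (-1.35) and *Swim* (-1.09). At day 5, 8 were higher, led by *Cln3* (1.49), *CAH1* (0.81), *Gba1a* (1.84), the Na+/K+-ATPase subunit *nrv1* (0.91) and *Nhe2* (0.78). A further 9 were lower, led by *Best1* (-1.31), *Npc2a* (-1.39), *Cln7* (-1.18), *CG12163* (-0.80) and *SecCl* (-2.57). Of all genes tested in cluster 12, 9.53% were higher and 10.1% lower at day 5.

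In the pylorus 0 of 42 listed genes passed the test at either day. Of all its genes, 0.169% were higher and 0.254% lower at day 2, and 0.127% and 0.677% at day 5. In the epithelial cells the potassium channel *Irk1* alone was higher at day 2 (1.16), and at day 5 *Irk1* (1.53), *CAH1* (0.82), *Irk2* (1.97), *nrv3* (1.18) and *Nhe2* (0.55) were higher and *Cln7* (-1.20) and *Ae2* (-0.88) lower, of 47 tested. Of all genes, 0.909% were higher and 1.42% lower at day 2, and 4.16% and 7.57% at day 5. Each of the genes named as higher also had a higher pooled level in the 50 epithelial nuclei above 150. A UMI of *Irk1* was found in only 16% of these 50 nuclei and of *nrv3* in 12%. The part of these nuclei was not tested.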

How the data were processed

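Single nuclei of 6 libraries were processed by the authors with Cell Ranger 6.1.1, which equalised read depth and joined the libraries; Seurat and BDGP6 are also named in the submitters' processing notes. The authors deposited natural log values per gene and nucleus and a table with each nucleus's cluster and condition. The step from UMIs to these values is not given in the sources used here. From the values it was worked out as a natural log of 1 plus a product of 10000, the UMIs of a gene as a share of its nucleus, and the ratio of the nuclei in the matrix to the gene's UMIs. Of the nonzero values, 99.97% led back to a UMI number no further than 0.05 from a whole one, and 94.8% could be recomputed to 0.001.

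UMIs were summed per cluster and library, with 0.5 added to each sum and 1 to each total, and log2 values were fitted with limma 3.58.1 (eBayes with trend, R 4.3.3) over all 6 libraries, in clusters that had 20 or more nuclei in each library. Responses of cluster pairs were tested as within-library differences. The fit was tested on simulated data. Means in Python 3.11.15 used numpy 2.4.6, pandas 2.3.3 and scipy 1.17.1. p-values measure the spread between 2 libraries per group, which may be technical, and intervals of counts cover counting error only.

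Members and lists were chosen with earlier results of these data known. Values are given for members that passed the test in cluster 12, pylorus or epithelial cells, and for up to 5 listed genes per direction with the smallest adjusted p; other members named, other clusters and the levels of 5 and 1 per 10000 that split cluster 12 were chosen after values were seen. No doublet caller was run, and leaving out the tenth of nuclei with the most UMIs stood in for one. In cluster 12, the pylorus and the epithelial cells, samples with the same replicate number did not deviate together (correlations of -0.06 to 0.07). Coordinates are those of the RefSeq table of Release 6 plus ISO1 MT, the release that BDGP6 names.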

Additional observations from a re-analysis of the deposited data

Results flagged for a closer look

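In 10 cases a V-ATPase gene was called higher in 1 cluster and lower in another in the same contrast. Both libraries of the day compared lay above both fed ones in the first cluster and below both in the second. The cases were picked for these calls, so the difference between the responses is given as a value and was not tested. At day 2, *Vha16-1* was 0.59 in cluster 12 and -0.22 in the fat body, a difference of 0.81. At day 5 its difference between cluster 12 and the trachea cells was 1.14. *Vha26*, the subunit E, differed at day 5 by 1.44 between the epithelial cells and follicle cluster 4 and by 1.03 between the fat body and follicle cluster 4. In follicle cluster 4 it was at 3.02 and 3.18 in the fed libraries, 2.96 and 3.28 at day 2 and 2.12 and 2.30 at day 5. *Vha100-2*, a subunit a, differed by 1.42 between cluster 12 and the fat body and by 1.88 between cluster 12 and neurons. *VhaSFD*, the subunit H, differed from the trachea cells by 1.44 in the indirect flight muscle and by 1.42 in muscle cluster 1. *Vha68-2*, the subunit A, differed by 1.67 between the epithelial cells and muscle cluster 1, and *Vha100-5* by 2.00 between cluster 12 and the fat body, where it was rare.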

How the results depend on the processing

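In the epithelial cells at day 5, where 2 V-ATPase genes passed, 1 did without the filter, 4 with median-ratio factors, 0 with only the 4 libraries compared, 0 without nuclei above 150 V-ATPase UMIs per 10000 (added after seeing the data) and 0 to 8 without 1 library. In cluster 12 at day 2, 1 of the 2 calls was made on the mean deposited value, 1 on the mean log-normalised value, 1 without those nuclei and 1 to 2 without 1 library. At day 5, 2 of the 4 calls were made on the mean deposited value, 2 on the mean log-normalised value and 1 to 5 without 1 library. In the pylorus at day 2, 2 genes passed with only the 4 libraries compared and 0 to 2 without 1 library. On the mean deposited value and on the mean log-normalised value the epithelial calls at day 5 turned to 3 lower each, and to 2 lower without the tenth of nuclei with the most UMIs. Between day 5 and day 2 the epithelial calls also turned, from 1 higher to 1, 2 and 2 lower in these 3 settings. On the mean deposited value, 8 rather than 15 of the listed pathway genes passed in cluster 12 at day 2 and 11 rather than 17 at day 5, and 2 V-ATPase genes rather than 0 differed in response at day 5 between cluster 12 and the epithelial cells. The summed level of cluster 12 was 58.5 in the fed libraries, against the median of 72.2. *Vha14-1* in germline cluster 6 changed sign on the mean deposited value at day 5 (0.00627). The causes were not tested.

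The replicate numbers only name the libraries. With the number as a replicate block, 5 rather than 2 V-ATPase genes passed in the epithelial cells at day 5 and 5 rather than 4 in cluster 12, and the counts were 2 in cluster 12 at day 2 and 0 in the pylorus. In 70 other planned settings, those without 1 library aside, these counts stayed within 1.5 times and the levels within 1 SD. Many of these settings compare a count of 0 that stayed 0, which says little about stability. Small clusters limit depth: the pylorus held 43 to 103 nuclei per library.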
